A study of Mus musculus with 10 samples.

Results

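The sialyltransferases, mannosidases and other sugar-transferring enzymes studied here are those genes of the array whose symbol begins with St3gal, St6gal, St6galnac, St8sia, Fut, Mgat, Man1a, Man1b, Man1c, Man2a, Man2b, Man2c, B4galt, B3gnt or Galnt followed by a digit. Of the 23111 genes with a symbol on the array, 82 met this rule. They fell into 9 enzyme classes. By their symbols 3 of them encode no enzyme: the antisense RNAs Man2c1os and St8sia3os and the pseudogene Fut4-ps1. Whether each of the others encodes an active enzyme was not examined. Expression was measured on Affymetrix arrays in total RNA of bEnd3 cells, a mouse brain endothelial line immortalised with the polyoma middle T antigen. In the 5 Gata4 samples a lentivirus with an EF1α promoter carried a codon-optimized mouse Gata4 cDNA, followed by an IRES, mCherry and a puromycin resistance gene. In the 5 empty-vector (EV) samples the virus carried the same cassette without Gata4, and cells of both groups were selected with puromycin. No untransduced cells were analysed here. The labels name the 5 samples of a group biological replicates but do not say whether they came from separate transductions. The spread behind the p-values is that of these samples and may not include differences between transductions. The series title places the experiment in a study of how GATA4, a zinc finger transcription factor, shapes the endothelium of different organs. Comparing the groups asks which of these enzyme genes change when GATA4 is introduced into brain endothelial cells.

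Glycoproteins and glycolipids of the cell surface receive their sugars in the endoplasmic reticulum and the Golgi apparatus, where each enzyme adds or removes particular sugars in particular linkages. On asparagine-linked (N-linked) glycans, mannosidases first trim mannose, the MGAT enzymes then start N-acetylglucosamine branches, and galactosyl-, fucosyl- and sialyltransferases extend and cap them. GALNT enzymes start the serine- or threonine-linked (O-linked) glycans of mucin-type proteins. On endothelium, capping sialic acids and fucoses form part of the glycocalyx and of the ligands that selectins and sialic acid-binding lectins recognise.

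Of the 82 genes, 19 rose and 9 fell in the Gata4 samples at an adjusted p under 0.05 (limma over all 23111 genes, Benjamini-Hochberg). The 28 calls are 34.1% of the members, against 25.6% of all genes tested, with 12.4% of all genes higher and 13.2% lower. In 24 members the groups held no overlapping values (29.3%, against 21.1% of all genes). The median change over the 82 members was 0.04 on the log2 scale, against -0.01 over all genes. Many of the members lay in the low range of the array: 35 had a mean over the 10 samples below the median of all features (4.15 on the log2 scale), where values may be background. In that range 1 member, Galnt12, was called (2.86%), against 5.24% of all genes in it. Above it 27 of 47 members were called (57.4%), against 46.1% of all genes there, and these shares are given as a description. Sialyltransferases accounted for 10 of the 28 calls with 21 members (47.6% of them), and the other 61 members for 18 (29.5%). The whole set is shown in the plot of change by enzyme class.

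**Figure D1:**
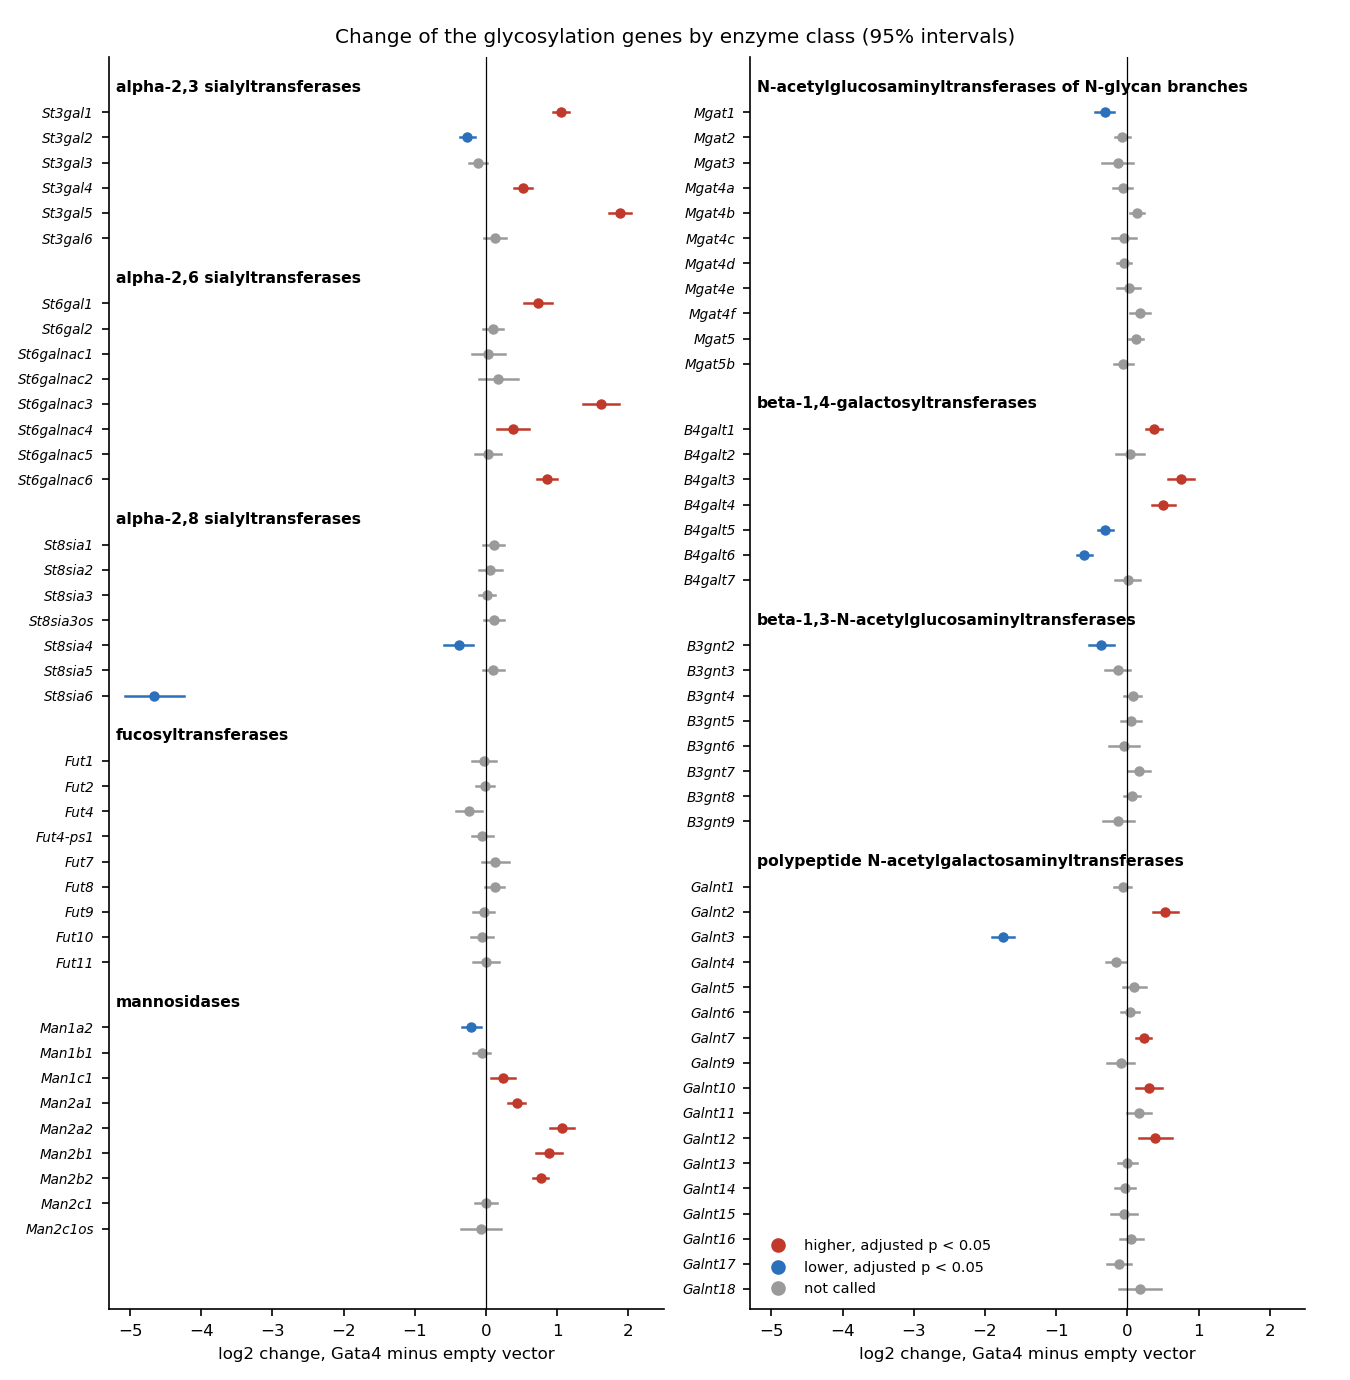
Log2 change (Gata4 minus empty vector, horizontal axis) of all 82 members by enzyme class, as points with 95% intervals from limma over 5 samples a group. Red marks genes that were higher and blue genes that were lower at an adjusted p under 0.05. St8sia6 stands alone at -4.66, while the largest rises are those of St3gal5 (1.88) and St6galnac3 (1.61).

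All levels below are log2 RMA values, and each gene is compared only with itself. The transduced gene itself was checked first. The Gata4 feature had means of 5.08 ± 0.17 (SD, n = 5) with Gata4 and 4.75 ± 0.16 with EV, a difference of 0.34 ± 0.09 (SE; adjusted p = 0.017; exact two-sided permutation p = 0.024), and the groups overlapped. The probes of this feature may miss the codon-optimized transgene. All 10 endothelial markers examined lay above the median of all features in both groups, whereas 6 of 26 markers of fibroblasts and mural cells, leukocytes, epithelium and neural cells did. Of the endothelial markers 3 rose and 4 fell, among them Tek (by 1.53), Kdr (by -1.18), Cldn5 (by -1.04) and Esam (by -0.70). Their summed log2 level ranged from 114.4 to 114.7 in the Gata4 samples and from 114.8 to 116.8 in the EV samples, without overlap. Of those 26, Pdgfra, Acta2 and Cd68 were lower in the Gata4 samples (by -1.01, -0.76 and -1.22) and Dcn and Rgs5 higher (by 0.33 and 0.32). The summed log2 level of the 9 fibroblast and mural markers ranged from 36.1 to 37.1 in the Gata4 samples and from 36.1 to 39.5 in the EV samples, and that of the 5 leukocyte markers from 20.0 to 20.5 and from 21.2 to 21.7. Acta2 (7.12 with EV, 6.36 with Gata4), Pdgfra (5.43 and 4.42) and Col1a1 (4.53 and 4.32) of the first list and Cd68 (8.53 and 7.30) of the other lay above the median of all features. The other 6 and 4 markers of these lists, Pdgfrb, Lum, Ptprc and Cd3e among them, lay below it. The part of such cells in the results was not tested.

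Because GATA factors bind the core letters GATA, the stretch around the start site was examined in the members that changed most. RefSeq promoter windows (GRCm38.p6; 250 bases before to 50 after a start site) were given for 58 of the 82 genes, 76 windows in all. The windows of 4 of the 6 members that changed at least 2-fold follow, with capitals marking the GC box (GGGCGG or its complement CCGCCC), a site of SP1-type factors. St8sia6 and Galnt3 fell, and St6galnac3 and St3gal5 rose. No window was given for the other two, St3gal1 and Man2a2.

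St8sia6, chr2:13793471-13793770, minus strand: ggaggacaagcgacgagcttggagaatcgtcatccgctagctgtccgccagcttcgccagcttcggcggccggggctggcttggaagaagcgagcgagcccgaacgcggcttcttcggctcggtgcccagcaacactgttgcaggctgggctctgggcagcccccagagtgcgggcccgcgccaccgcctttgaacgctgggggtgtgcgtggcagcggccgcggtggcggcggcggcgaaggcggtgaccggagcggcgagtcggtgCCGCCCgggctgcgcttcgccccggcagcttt
Galnt3, chr2:66124744-66125043, minus strand: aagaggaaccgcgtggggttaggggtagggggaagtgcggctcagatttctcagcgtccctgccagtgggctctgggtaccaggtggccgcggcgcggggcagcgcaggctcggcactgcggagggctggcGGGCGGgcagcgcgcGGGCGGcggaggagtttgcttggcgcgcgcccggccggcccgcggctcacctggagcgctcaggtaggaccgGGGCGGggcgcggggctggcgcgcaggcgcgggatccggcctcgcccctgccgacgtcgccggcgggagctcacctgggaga
St6galnac3, chr3:153725084-153725383, minus strand: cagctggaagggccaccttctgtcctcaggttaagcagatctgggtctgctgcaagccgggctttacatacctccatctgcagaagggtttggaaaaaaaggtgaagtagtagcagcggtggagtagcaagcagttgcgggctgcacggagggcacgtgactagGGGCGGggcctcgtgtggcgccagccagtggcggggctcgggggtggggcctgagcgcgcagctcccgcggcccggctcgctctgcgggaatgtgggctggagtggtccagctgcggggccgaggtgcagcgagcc
St3gal5, chr6:72097358-72097657, plus strand: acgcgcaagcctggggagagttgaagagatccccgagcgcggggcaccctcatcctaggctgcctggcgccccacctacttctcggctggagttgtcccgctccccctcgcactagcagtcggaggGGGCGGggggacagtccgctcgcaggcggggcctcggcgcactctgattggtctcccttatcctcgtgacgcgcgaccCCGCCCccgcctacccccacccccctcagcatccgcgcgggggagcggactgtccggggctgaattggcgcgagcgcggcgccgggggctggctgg

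None of these 4 windows held AGATAA or AGATAG or TGATAA or TGATAG on either strand (0 matches in each). Among the 21 called members with a window, 2 held such a match. They were St8sia4, which fell, with AGATAG starting at position -217 from the start site, and 1 of the windows of St6gal1, which rose, with AGATAA starting at -89. In these 2 windows the capitals mark the GATA match.

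St8sia4, chr1:95667545-95667844, minus strand: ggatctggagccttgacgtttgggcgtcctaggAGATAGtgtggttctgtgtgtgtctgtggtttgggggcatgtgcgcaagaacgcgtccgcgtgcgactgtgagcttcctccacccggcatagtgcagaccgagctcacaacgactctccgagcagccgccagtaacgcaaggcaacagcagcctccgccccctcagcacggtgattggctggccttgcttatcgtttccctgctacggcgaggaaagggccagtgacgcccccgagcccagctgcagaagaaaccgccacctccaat
St6gal1, chr16:23224490-23224789, plus strand: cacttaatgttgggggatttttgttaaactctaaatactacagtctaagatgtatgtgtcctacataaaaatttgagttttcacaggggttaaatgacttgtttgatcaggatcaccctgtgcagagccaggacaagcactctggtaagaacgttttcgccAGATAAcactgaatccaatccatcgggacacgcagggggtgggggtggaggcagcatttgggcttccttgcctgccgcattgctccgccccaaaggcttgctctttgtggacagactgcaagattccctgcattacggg

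A GATA match was present in 1 of 17 windows of members that rose (5.88%), in 1 of 8 windows of members that fell (12.5%) and in 18 of 51 windows of members that were not called (35.3%), against 29.8% of all 32851 windows of the table. The windows differed in base composition: the median GC content was 65.7% in members that rose, 71.0% in members that fell, 58.7% in members not called and 52.7% in all windows. A GC box was present in 12 of the 17, 7 of the 8 and 28 of the 51 windows, and in 35.7% of all windows. No match says only that these letters are not in the window.

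The α2,8 sialyltransferases, which attach sialic acid to another sialic acid, held the largest change of all members. St8sia6 adds such a second sialic acid mainly to O-glycans. Its values in EV samples 1 to 5 were 8.07, 7.76, 8.92, 8.67 and 8.78, and in Gata4 samples 1 to 5 they were 3.60, 3.77, 3.90, 3.91 and 3.73. Every Gata4 sample lay below the median of all features, and the lowest EV sample was still far above the highest Gata4 sample. The difference of -4.66 ± 0.19 (SE) is a 25.2-fold lower level (95% interval 18.9 to 33.7; adjusted p = 1.7e-09), and because the Gata4 values may be background the fold can be understated. St8sia4, one of the polysialyltransferases that build long sialic acid chains on the adhesion molecule NCAM, fell by 0.38 ± 0.09 (SE; adjusted p = 0.0087) from 5.94 ± 0.18 to 5.56 ± 0.15, and its groups overlapped (exact rank-sum test, adjusted p = 0.064). With 2 of 7 genes called, the class stood at 28.6%, against 25.6% of all genes. These 2 were its only genes above the median of all features, where 46.1% of all genes were called. The remaining 5 genes of this class did not pass the test and lay below the array-wide median level. They were the ganglioside enzyme genes St8sia1 and St8sia5, the second polysialyltransferase gene St8sia2, St8sia3 and St8sia3os. The largest difference among these 5 was that of St8sia3os (0.11), and St8sia1, the GD3 synthase gene, stood at 3.36 ± 0.05 against 3.26 ± 0.15.

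The α2,3 sialyltransferases, which link sialic acid to galactose, rose in 3 of 6 cases and fell in 1 (66.7% called). All 6 lay above the median of all features, where 46.1% of all genes were called. St3gal5 encodes GM3 synthase, which starts the ganglioside series by sialylating lactosylceramide. It stood at 7.84, 7.71, 7.87, 7.87 and 7.71 in the EV samples and at 9.65, 9.46, 9.70, 9.83 and 9.76 in the Gata4 samples. The groups were separated by more than 1 log2 unit, and the rise was 3.67-fold (95% interval 3.30 to 4.09; adjusted p = 7.2e-10). St3gal1, which caps the core 1 disaccharide of O-glycans, stood at 8.22, 8.12, 8.10, 8.20 and 8.14 in the EV samples and at 9.13, 9.21, 9.29, 9.15 and 9.27 in the Gata4 samples. These groups did not overlap either, with a rise of 2.08-fold (95% interval 1.93 to 2.24; adjusted p = 6e-09). St3gal4, which caps lactosamine ends and takes part in making selectin ligands, rose by 0.52 ± 0.06 (SE; adjusted p = 1.4e-05). St3gal2, which acts on core 1 glycans and on gangliosides, fell by 0.27 ± 0.05 (SE; adjusted p = 0.0012). St3gal3 and St3gal6, which cap lactosamine-type chains, had differences of -0.11 (95% interval -0.24 to 0.02) and 0.13 (-0.02 to 0.29) and did not pass. St3gal3 passed without EV samples 1 and 2 together.

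The α2,6 sialyltransferases rose in 4 of 8 cases, and the other 4 did not pass the test. Of the 8, 5 lay above the median of all features, and 4 of these were called (80.0%), against 46.1% of all genes there. St6gal1 places α2,6-linked sialic acid on the galactose of N-glycans. Its values were 7.07, 7.07, 7.20, 7.45 and 7.47 in the EV samples and 7.84, 8.06, 8.01, 7.96 and 8.05 in the Gata4 samples, a rise of 1.66-fold (95% interval 1.45 to 1.90; adjusted p = 3.6e-05). St6galnac3, which adds a second sialic acid to sialylated core 1 glycans and to gangliosides, stood at 4.36, 4.02, 4.58, 4.74 and 4.59 in the EV samples and at 5.96, 6.12, 6.08, 6.22 and 5.99 in the Gata4 samples. EV sample 2 lay below the median of all features, so the rise of 3.06-fold (95% interval 2.58 to 3.64; adjusted p = 2.9e-07) starts from a low level. St6galnac6, an enzyme of α-series gangliosides, stood at 7.25, 7.16, 7.35, 7.19 and 7.02 in the EV samples and at 8.05, 7.94, 8.10, 8.06 and 8.10 in the Gata4 samples, a rise of 1.81-fold (95% interval 1.65 to 1.99; adjusted p = 3.8e-07). None of these 3 genes had a Gata4 sample within the EV range. St6galnac4, which shares the substrate of St6galnac3 on O-glycans, rose by 0.38 ± 0.10 (SE; adjusted p = 0.014), a call lost without EV samples 1 and 2 (adjusted p = 0.077). St6galnac2, an enzyme of core 1 O-glycans, had a difference of 0.17 with an interval from -0.10 to 0.44. St6gal2, St6galnac1 and St6galnac5 lay below the median of all features, with differences between 0.03 and 0.10.

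**Figure D2:**
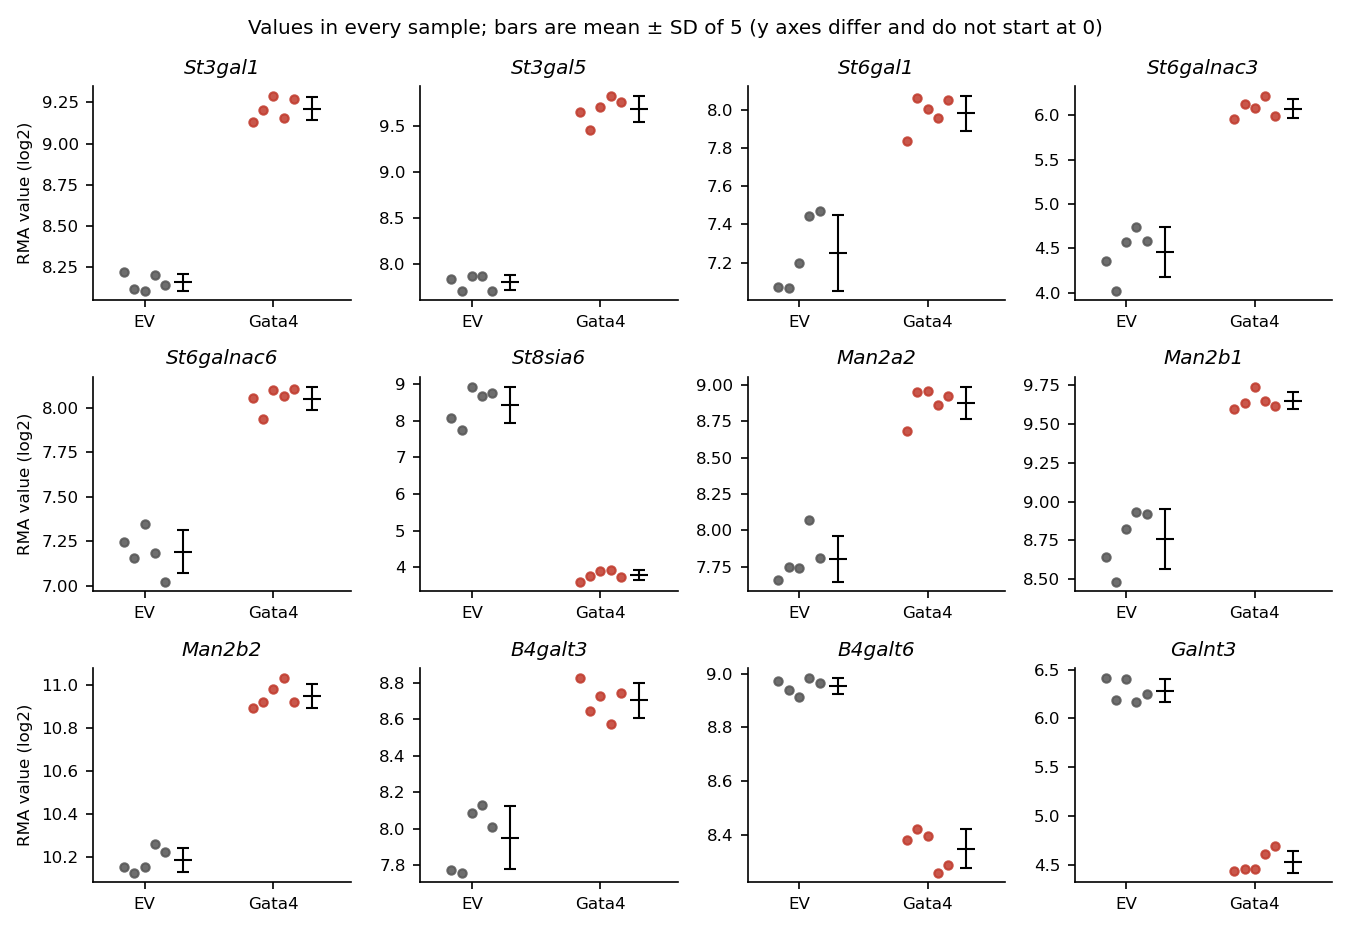
RMA values (log2, vertical axes) of the 12 members that were called, changed at least 1.5-fold and had groups without overlap, in 5 EV and 5 Gata4 samples, replicates 1 to 5 from left to right, with mean ± SD beside them. The groups are apart in each panel, and EV samples 1 and 2 are the lowest EV samples of St6gal1, St6galnac3, St8sia6, Man2b1 and B4galt3.

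Members called, changed at least 1.5-fold and without overlap numbered 12 of 82, where 7.21% of all genes met these conditions, and the plot of values in every sample shows them. Within the EV group, samples 1 and 2 stood below samples 3 to 5 for 5 of the 12 and for 17 of all 82 members, as they did for 14.4% of all genes (above them for 15.0%). The same 2 samples lay apart from the other EV samples on the second principal component of all genes, which held 5.26% of the variance. Without them the difference of St8sia6 was -5.01, that of St6galnac3 1.44, that of St6gal1 0.61, that of Man2b1 0.75 and that of B4galt3 0.63, each still past the threshold. The cause of this split was not tested.

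Mannosidases rose in 5 of 9 cases and fell in 1 (66.7% called). All 9 lay above the median of all features, where 46.1% of all genes were called. The largest rise was that of Man2a2, which encodes Golgi α-mannosidase IIx, an enzyme that removes the last mannoses before complex branches are built. It stood at 7.66, 7.75, 7.74, 8.07 and 7.81 in the EV samples and at 8.69, 8.95, 8.96, 8.86 and 8.92 in the Gata4 samples, a 2.10-fold rise (95% interval 1.86 to 2.37; adjusted p = 4.9e-07). Man2a1, the gene of the related Golgi α-mannosidase II, rose by 0.43 ± 0.06 (SE; adjusted p = 6.1e-05), from 9.77 ± 0.08 to 10.21 ± 0.08. Both genes of this Golgi step thus rose. Man2b1 encodes the lysosomal acid α-mannosidase, which degrades glycans. Its values were 8.64, 8.48, 8.83, 8.93 and 8.92 in the EV samples and 9.60, 9.64, 9.74, 9.65 and 9.62 in the Gata4 samples (1.85-fold; 95% interval 1.63 to 2.09; adjusted p = 3.5e-06). Man2b2, a second lysosomal α-mannosidase gene, stood at 10.15, 10.12, 10.15, 10.26 and 10.22 in the EV samples and at 10.89, 10.92, 10.98, 11.03 and 10.92 in the Gata4 samples (1.70-fold; 95% interval 1.58 to 1.83; adjusted p = 9.3e-08). The groups did not overlap for either lysosomal gene. The early trimming enzymes of the Golgi changed little and in opposite directions: Man1c1 rose by 0.24 ± 0.08 (SE; adjusted p = 0.033) and Man1a2 fell by 0.21 ± 0.06 (SE; adjusted p = 0.023), and both had overlapping groups. Neither call held in an exact rank-sum test (adjusted p = 0.17 and 0.064) or without EV samples 1 and 2 (0.098 and 0.10). The call of Man1c1 was also lost without Gata4 replicate 2, 3, 4 or 5 or EV replicate 2 or 5 (adjusted p 0.061 to 0.084), and that of Man1a2 without Gata4 replicate 1 or 4 or EV replicate 2 (adjusted p 0.057 to 0.059). Man1b1, of the endoplasmic reticulum, and Man2c1os did not pass, with differences of -0.06 and -0.07, nor did Man2c1, a cytosolic enzyme gene, at 6.41 in both groups. Man1a, the third early Golgi trimming enzyme gene, lies outside the symbol rule and rose by 0.34 ± 0.06 (SE; adjusted p = 0.0013).

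The MGAT genes, named for enzymes that start the branches of complex N-glycans, were called in 1 of 11 cases (9.09%, against 25.6% of all genes). Of the 5 above the median of all features 1 was called (20%), against 46.1% of all genes there. Mgat1, the first of these enzymes in the pathway, fell from 5.75 ± 0.11 to 5.43 ± 0.07, by 0.32 ± 0.06 (SE; adjusted p = 0.0018). Mgat2, which starts the second branch, had a difference of -0.07, and Mgat4a, an enzyme of the β1,4 branch, one of -0.07. Mgat4b (0.13) and Mgat5 (0.12), an enzyme of the β1,6 branch, lay just short of the threshold at adjusted p = 0.053 and 0.061, and the Mgat5 groups did not overlap. Both passed with an intensity trend in the variance model, with cyclic loess normalization and among genes above the median level, and Mgat4b also without Gata4 replicate 1 or EV replicate 5 (adjusted p = 0.049 and 0.031). The other 6 genes, among them Mgat3 of the bisecting branch, lay below the array-wide median level, the largest difference being that of Mgat4f (0.18, adjusted p = 0.071; 0.025 without Gata4 replicate 1).

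The β1,4-galactosyltransferases, which add galactose to N-acetylglucosamine or to glucosylceramide, were called in 5 of 7 cases (71.4%), 3 higher and 2 lower. All 7 lay above the median of all features, where 46.1% of all genes were called. B4galt3, an enzyme of N-acetyllactosamine chains, stood at 7.78, 7.76, 8.09, 8.13 and 8.01 in the EV samples and at 8.83, 8.65, 8.73, 8.57 and 8.74 in the Gata4 samples, without overlap (1.69-fold; 95% interval 1.49 to 1.91; adjusted p = 1.5e-05). B4galt4 and B4galt1, of the same chains, rose by 0.51 ± 0.07 and 0.37 ± 0.05 (SE; adjusted p = 0.00017 and 7.3e-05). The 2 genes that fell are those of the lactosylceramide synthases. B4galt6 stood at 8.97, 8.94, 8.91, 8.98 and 8.96 in the EV samples and at 8.38, 8.42, 8.39, 8.26 and 8.29 in the Gata4 samples (1.52-fold lower; 95% interval 1.42 to 1.64; adjusted p = 7.2e-07). B4galt5 fell from 10.10 ± 0.05 to 9.79 ± 0.06, by 0.31 ± 0.05 (SE; adjusted p = 0.00031). B4galt2 (0.04, 95% interval -0.16 to 0.24) and B4galt7 (0.00, -0.17 to 0.18), which builds the linker of glycosaminoglycans, did not pass.

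The genes around ganglioside synthesis can be read in the order of the pathway. Ugcg, whose product makes glucosylceramide, was chosen after its values were seen and stood at 8.65 ± 0.08 against 8.64 ± 0.08 (adjusted p = 0.96). The next step, lactosylceramide synthesis by B4galt5 and B4galt6, was lower for both genes, and St3gal5, which uses lactosylceramide, was 3.67-fold higher. B4galnt1, which encodes the GM2/GD2 synthase and follows GM3, rose 2.51-fold from 4.37 ± 0.09 to 5.70 ± 0.17 (adjusted p = 7.6e-08), from a low level. B3galt4, also chosen after its values were seen, lay below the median of all features and did not pass (3.50 ± 0.13 with Gata4, 3.70 ± 0.17 with EV). Of the other sialyltransferase genes described above for gangliosides, St6galnac3 and St6galnac6 rose, St3gal2 fell, and St8sia1 and St8sia5 did not pass. The glycolipid list is wider than the ganglioside pathway and is not read in its order. Of its degradation genes, Gla, Gba2 and Hexa rose by 0.93, 0.83 and 0.58, and Glb1 fell by 0.15 (adjusted p = 0.045). In all, 4 of 9 genes of this glycolipid list rose, 1 fell and 4 did not pass (55.6% called, against 25.6% of all genes). Above the median of all features 5 of 8 were called (62.5%), against 46.1% of all genes there.

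Fucosyltransferases were called in 0 of 9 cases by limma, with 1 lower at an unadjusted p under 0.05 and 0 called by the exact rank-sum test. Over all genes limma called 25.6%, and 46.1% of those above the median of all features, where 3 of the 9 lay. Fut8, which adds the core fucose of N-glycans, stood at 8.95 ± 0.07 against 8.83 ± 0.12, and Fut11 at 7.94 in both groups. Fut10 had a difference of -0.06. The other 6 features lay below the median of all features, among them the genes of selectin ligand synthesis, Fut7 (3.30 ± 0.11 against 3.17 ± 0.18) and Fut4 (3.24 ± 0.13 against 3.48 ± 0.15; adjusted p = 0.0503), and Fut1, Fut2 and Fut9. Fut4 passed the threshold in the fit with an intensity trend, with the replicate number as a block and without Gata4 replicate 1 or 4 or EV replicate 1 or 2 (adjusted p 0.033 to 0.047).

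Of the β1,3-N-acetylglucosaminyltransferases, which extend lactosamine chains or O-glycan cores, 1 of 8 was called (12.5%, against 25.6% of all genes). Of the 2 above the median of all features 1 was called (50%), against 46.1% of all genes there. B3gnt2, the main enzyme of poly-lactosamine chains, fell from 7.13 ± 0.10 to 6.76 ± 0.17, by 0.37 ± 0.08 (SE; adjusted p = 0.0039), without overlap. B3gnt3, which extends core 1 O-glycans, stood at 8.87 ± 0.20 against 9.01 ± 0.05 and did not pass. The other 6 lay below the median of all features, with B3gnt7 showing the largest difference (0.16).

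Among the 17 polypeptide N-acetylgalactosaminyltransferases, which choose the sites where O-glycans start, 4 rose and 1 fell. These calls are 29.4% of the class, against 25.6% of all genes. Above the median of all features 4 of 8 were called (50%), against 46.1% of all genes there. Galnt3, whose product glycosylates the phosphate hormone FGF23, stood at 6.42, 6.19, 6.40, 6.17 and 6.25 in the EV samples and at 4.44, 4.46, 4.46, 4.62 and 4.69 in the Gata4 samples. All Gata4 values were low but above the median of all features, and the level was 3.37-fold lower (95% interval 3.03 to 3.74; adjusted p = 1.5e-09). Galnt2, a widely expressed family member, rose 1.44-fold from 8.84 ± 0.11 to 9.37 ± 0.16 (adjusted p = 0.00026), without overlap. Galnt7 and Galnt10, which prefer peptides that already carry a sugar, rose by 0.23 ± 0.05 and 0.30 ± 0.08 (SE; adjusted p = 0.0034 and 0.019), with overlap for Galnt10. Galnt12 rose by 0.39 ± 0.11 (SE; adjusted p = 0.015) below the median of all features, at 3.66 ± 0.19 against 3.27 ± 0.19, where values may be background. The calls of Galnt10 and Galnt12 were lost in an exact rank-sum test (adjusted p = 0.11 and 0.064) and without EV samples 1 and 2 (0.086 and 0.062), and that of Galnt10 without Gata4 replicate 3 or 5 (0.052 each). Of the 12 genes not called, 8 lay below the median of all features. Galnt18 (0.18, 95% interval -0.12 to 0.47) and Galnt11 (0.16) had the largest differences, and Galnt1 stood at 9.55 against 9.62. Galnt11 and Galnt17 passed without EV replicate 5 (adjusted p = 0.042 and 0.044) and Galnt4 without Gata4 replicate 1 (0.047).

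**Figure D3:**
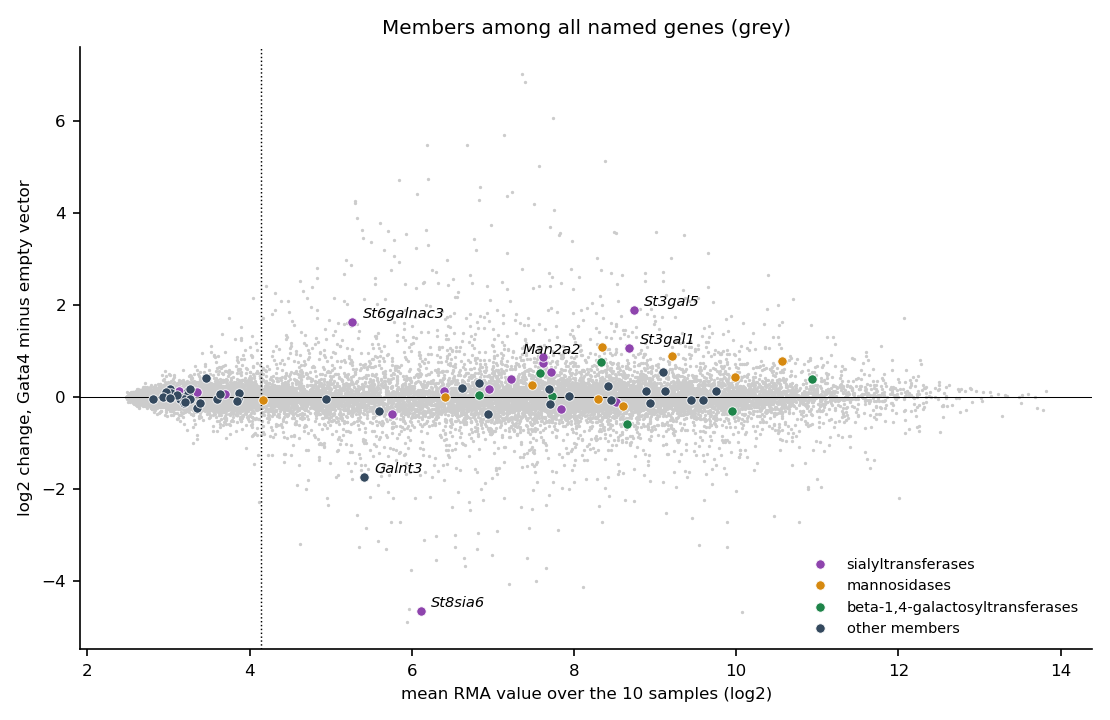
Log2 change (Gata4 minus empty vector, vertical axis) against the mean RMA value over the 10 samples (log2, horizontal axis) for all 23111 named genes (grey) and the 82 members (coloured by class). The dotted line marks the median of all features at 4.15. The 6 named members changed at least 2-fold, and the 35 members left of the line lie between -0.24 and 0.39.

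The plot of change against level shows where the members lie among all genes. At least 2-fold changes among called genes were seen in 6 of the 82 members, 4 of them sialyltransferases, and in 3.16% of all genes. The members varied between samples about as much as other genes, with a median SD of 0.10 in the Gata4 and 0.12 in the EV group, against 0.10 and 0.11 over all genes.

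Sialyltransferases draw on CMP-sialic acid. Of 11 genes of sialic acid synthesis, activation, transport and modification, 7 rose and 4 did not pass. The 7 are 63.6%, where 12.4% of all genes were called higher and 25.6% in either direction. Above the median of all features lay 8 of the 11. Of these 8, 7 were called (87.5%), against 46.1% of all genes there in either direction. Cmas, which encodes the enzyme that activates sialic acid to CMP-sialic acid, rose 3.37-fold from 9.06 ± 0.10 to 10.81 ± 0.04 (adjusted p = 1.4e-10). Npl, the sialic acid lyase gene, rose 3.52-fold from 5.61 ± 0.11 to 7.43 ± 0.14, and Slc17a5, the gene of the lysosomal sialic acid exporter, 1.67-fold. The list thus held rises in supply, in recovery and in breakdown. The other 4 that rose were chosen for naming after their values were seen: Gne (0.42) and Nans (0.15), of the first steps of synthesis, Slc35a1 (0.40), the CMP-sialic acid transporter of the Golgi, and Casd1 (0.27), a sialic acid O-acetyltransferase. Of the sialidase genes, the lysosomal Neu1 rose by 0.51 ± 0.07 (SE), and Neu2, which lay below the array-wide median level, fell by 0.23.

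**Figure D4:**
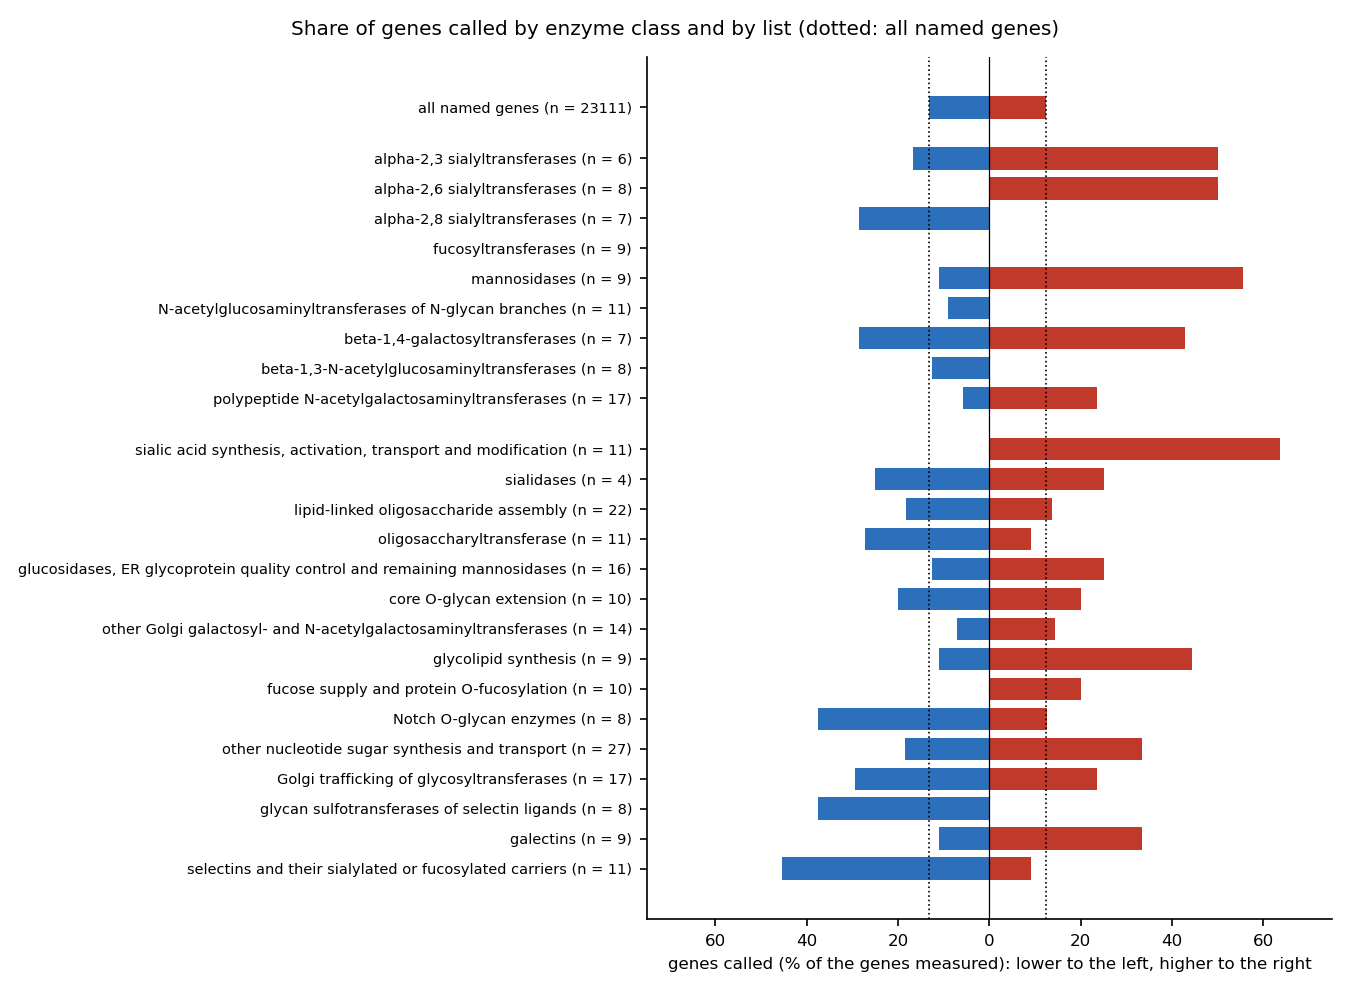
Genes called higher (red, to the right) and lower (blue, to the left) in the Gata4 samples, as percent of the genes measured, for all named genes, the 9 enzyme classes and 15 lists of other glycosylation genes. Dotted lines mark the shares over all named genes, 12.4% higher and 13.2% lower. Sialic acid supply reaches farthest to the right and the selectins and their carriers farthest to the left.

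Over 187 other glycosylation genes in 15 lists, 44 rose and 36 fell (42.8% called, against 25.6% of all genes), with a median change of 0.01. Only 34 of them lay below the median of all features. Above it 77 of 153 were called (50.3%), against 46.1% of all genes there. In O-glycan extension, C1galt1, the core 1 synthase gene, rose 2.12-fold from 8.91 to 9.99 while its chaperone gene C1galt1c1 fell by 0.24. In the same list Gcnt1, of core 2 branches, rose by 0.58 and Gcnt2, of branched lactosamine chains, fell by 0.94. In it 2 of 10 were higher and 2 lower (40% called), and 3 of 5 above the median of all features were called (60%). Among 8 sulfotransferases of selectin ligands and related chains 3 fell (37.5%) and 5 did not pass. Above the median of all features lay 4 of the 8, and 75% of these were called. Chst1 was 4.62-fold lower, from 8.24 to 6.03 (adjusted p = 1.4e-09), Chst2 2.42-fold and Chst7 1.54-fold. Of 11 selectins and carrier glycoproteins 5 fell and 1 rose (54.5% called), and 6 of 8 above the median of all features were called (75%). Sele and Selp, the E- and P-selectin genes, fell by 2.13 and 2.04. Cd34, a sialomucin gene, was 2.29-fold lower, and Emcn, the endomucin gene, rose by 0.20.

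Genes of the early steps of N-glycosylation were called in both directions. The shares below compare with 25.6% of all genes and 46.1% of those above the median of all features. Of 22 genes of lipid-linked oligosaccharide assembly, all above that median, 3 rose and 4 fell (31.8% called). The largest changes were those of Alg6 (0.55), Mpdu1 (0.37), Dhdds (0.26), Alg14 (-0.32), Nus1 (-0.32) and Dolk (-0.23). Of 11 oligosaccharyltransferase genes, all above that median, 1 rose and 3 fell (36.4% called). Tusc3, the gene of an oxidoreductase subunit, rose by 0.61, while Rpn1, the ribophorin I gene, Ostc, of an accessory subunit, and Stt3b, of a catalytic subunit, fell by 0.23, 0.21 and 0.17. In the list of glucosidases, quality control and further mannosidases 4 of 16 rose and 2 fell (37.5% called). Of its 14 genes above that median 6 were called (42.9%). Besides Man1a, the lysosomal β-mannosidase gene Manba rose by 0.60 and Mcfd2, of a cargo receptor, by 0.33. Mogs, the glucosidase I gene, and Edem1 fell by 0.43 and 0.29.

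Genes of sugar supply and of Notch modification were called in both directions. The shares below compare with 25.6% of all genes and 46.1% of those above the median of all features. Of 27 further genes of nucleotide sugars, all above that median, 9 rose and 5 fell (51.9% called). Ugdh, the UDP-glucose dehydrogenase gene, was 2.46-fold higher, Ugp2 1.82-fold and Nagk 1.71-fold. Gfpt2, Pmm2 and Slc35b1 changed by -0.62, -0.35 and -0.33. Of 10 genes of fucose supply and protein fucosylation, all above that median, 2 rose (20% called), Slc35c2 (0.22) and Fuca2 (0.14). The other 8 did not pass. Among 8 genes of Notch O-glycans the fringe genes Mfng and Lfng fell by 0.63 and 0.45. The glucosyltransferase gene Poglut1 fell by 0.18, and Eogt rose by 0.55. These 4 calls are 50% of the list, and 57.1% of its 7 genes above that median. Of 14 other Golgi galactosyl- and N-acetylgalactosaminyltransferases 2 rose, B4galnt1 and B3galt1 (0.66). A4galt, the Gb3 synthase gene, fell by 0.43 below the median of all features. These 3 are 21.4% of the list, and 2 of its 5 genes above that median were called (40%). Of 17 genes of Golgi trafficking, all above that median, 4 rose and 5 fell (52.9% called). Cog5 (0.41), Cog7 (0.31) and Cog6 (0.22) were higher and Atp6v0a2 (-0.36), Cog2 (-0.25) and Golgb1 (-0.24) lower. Of 9 genes of galectins and a galectin-binding protein 3 rose, Lgals3bp (1.46), Lgals9 (0.58) and Lgals1 (0.46), and Lgals3 fell by 0.49. These 4 calls are 44.4% of the list, and 80% of its 5 genes above that median.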

How the data were processed

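Total RNA of 10 samples (5 Gata4, 5 EV) was measured on Affymetrix arrays. The deposited table holds log2 values that the authors made with RMA, per the submitters' processing notes, which corrects background, quantile-normalizes the arrays and summarises the probes of a feature. For RMA's version, the annotation of probes and the build, the sources used here give nothing. All columns shared 1 distribution up to rounding (range 2.37 to 13.9), which would hide any shift common to all genes. The table gives no detection call. The number of arrays, 5 a group, limits the precision.

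Of 23748 features, 23111 had 1 symbol in the platform annotation, 0 had several and 637 had none. All 82 members were also in the RefSeq gene table. Of 194 other glycosylation genes listed, 187 were measured. The groups were fitted with lmFit and eBayes of limma 3.58.1 in R 4.3.3, with no trend, over all 23111 named genes; p-values were adjusted by Benjamini-Hochberg and called under 0.05. Simulated data with known changes were used to test this fit. A member was given in every sample where it was called, changed at least 1.5-fold and its groups did not overlap. Other called members were given by difference or means, and up to 2 uncalled members of a class and up to 3 called genes in each direction of a list were named by size of change. Further uncalled members were named to account for the class. The members and lists were chosen with earlier results of these data known.

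Correlations between arrays were 0.9964 to 0.9977 within and 0.9841 to 0.9863 between groups, and 0 pairs of columns were identical. Alternatives comprised other variance models, filters on low levels, cyclic loess, an exact rank-sum test, a stricter threshold, a test against a minimum fold, the replicate number as a block and leaving samples out.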

Additional observations from a re-analysis of the deposited data

Results flagged for a closer look

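Among the 56 groups of 5 values behind the called members, 1 held a sample far from the others, where chance gives about 1 in 20. Man2a1 stood at 10.35 in Gata4 replicate 2, while the other 4 Gata4 samples lay between 10.15 and 10.19. The gap made up 0.782 of the range of the group, above the critical value of 0.71. All 5 Gata4 values were above the EV values, and the call of Man2a1 held without this sample.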

How the results depend on the processing

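Each of the 28 called members had the same direction in every one of the 21 alternative settings that tested it (the filter at the median dropped Galnt12), and 15 of the 28 kept their call in all of them. The calls lost most often were those of Man1c1, Man1a2, Galnt10 and Galnt12, all small changes with overlapping groups. Leaving out 1 replicate at a time gave 17 to 21 members higher and 9 to 10 lower, 5367 to 5643 genes called over all named features and 69 to 79 other glycosylation genes called. By class these fits called 4 α2,3 and 4 α2,6 sialyltransferases each time, 2 α2,8 sialyltransferases, 0 to 1 fucosyltransferases, 4 to 6 mannosidases, 1 to 3 MGAT genes, 5 galactosyltransferases, 1 B3gnt gene and 4 to 7 GALNT genes, and the Gata4 difference ranged from 0.29 to 0.40.

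A test against a fold of 1.2 (treat) called 2072 genes, 12 members higher and 3 lower, 32 other glycosylation genes, 1 α2,8 sialyltransferase, 3 mannosidases, 0 MGAT genes, 3 galactosyltransferases, 0 B3gnt genes and 2 GALNT genes; fewer calls follow from its construction. The exact rank-sum test called 1 α2,8 sialyltransferase, 2 MGAT genes and 3 GALNT genes. An adjusted p under 0.01 left 3 GALNT genes, as did leaving out EV samples 1 and 2 together, a pair that earlier work on these data had found apart. Without that pair 5 α2,3 and 3 α2,6 sialyltransferases were called, with St3gal3 gained and St6galnac4 lost. That pair's removal, the intensity trend, the filter at the 25th percentile of levels and the replicate block each called 1 fucosyltransferase (Fut4). The intensity trend, cyclic loess and the filter at the median called 3 MGAT genes and the filter at the 25th percentile 2. Gata4 was not called by the rank-sum test (adjusted p = 0.11), by treat (adjusted p = 1) or at the 0.01 threshold, with a difference of 0.34 in each. The cause of these differences was not tested. The filters dropped 12 and 35 members from testing. Same-numbered samples of the groups deviated from their group means with correlations of -0.018 to 0.087. For 3 of the 5 numbers, the Gata4 sample correlated best with the EV sample of its own number. Whether the numbers pair the samples is therefore not settled. The replicate block called 1 member more and changed no other member's call.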
